A study of Mus musculus with 36 samples.

Results

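The 12 RNA libraries of mouse hippocampus were divided by their content of transthyretin (Ttr) transcripts, a defining product of the choroid plexus. The 7 libraries with at least 100 CPM of Ttr, the raw count scaled to the library's total of gene counts, are called Ttr-high, and the 5 libraries under that level Ttr-low. Ttr itself therefore chose the libraries, and every gene-by-gene comparison between Ttr-high and Ttr-low libraries is a description without a test. Of the 36 samples of the series, 4 are RNA samples with 3 libraries each, and the others, from chromatin, are not analysed here.

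The groups were CKp25 mice at 2 weeks, CK mice at 2 weeks, CKp25 mice at 6 weeks and CK mice at 6 weeks, the time being counted from the induction of p25. All were female, given as 3 months old. In CK-p25 mice, which carry a pair of transgenes, the CamKIIα promoter drives inducible expression of p25, an activator of the kinase Cdk5, in forebrain neurons, and neurons are lost. CK denotes the control littermates; the sources used here do not give which transgene a control carries. Libraries are named by group and number. The labels do not say that each number is 1 animal, and where they are not, the spread behind each p-value is that of repeat libraries and may be technical.

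The choroid plexus is a sheet of secretory epithelium around a core of vessels and stroma that hangs in the brain ventricles. It makes cerebrospinal fluid by pumping ions and water, seals that fluid from the blood with tight junctions, and secretes carrier proteins and growth factors into it. The plexus of the lateral ventricle lies against the fimbria of the hippocampus. In bulk tissue, a larger number of cells of a type and more RNA per cell cannot be told apart. Whether choroid plexus was carried along at dissection was not tested by a measurement other than these transcript levels.

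Ttr-high libraries occurred in all 4 groups. Raw Ttr values were 1120 and 313 CPM in CKp25_2wk_4518 and CKp25_2wk_4894, 864 CPM in CK_2wk_4520, 1031 and 1846 CPM in CKp25_6wk_3937 and CKp25_6wk_4008, and 575 and 2209 CPM in CK_6wk_3936 and CK_6wk_4009. The Ttr-low libraries had 6.68 CPM in CKp25_2wk_4890, 14.6 and 7.12 CPM in CK_2wk_4891 and CK_2wk_4893, 6.42 CPM in CKp25_6wk_3940 and 19.96 CPM in CK_6wk_3938. The nearest libraries on either side of the minimum were thus at 313 CPM and 19.96 CPM, and no library lay between them. In counts, Ttr-high libraries held 1825 to 12849 Ttr reads and Ttr-low libraries 35 to 102. The split was balanced between genotypes at 6 weeks, with 2 Ttr-high libraries in CKp25 and 2 in CK. At 2 weeks it was not, with 2 Ttr-high libraries in CKp25 and 1 in CK.

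The libraries held 5029996 to 6450140 gene counts, of which 18.5 to 24.7% were at 37 mitochondrial genes, and no pair within a group differed as little as sampling noise. Read classes that name no gene gave 3 measures that the rule did not use, and each was tested by an exact permutation of the Ttr-high and Ttr-low labels within groups (two-sided, 81 arrangements, smallest possible p 0.0123). Reads outside annotated features were on average 1.70 percentage points higher in Ttr-high libraries (exact p = 0.395, adjusted over the 3 measures 0.457). Reads with several alignments differed by -2.14 percentage points (exact p = 0.333, adjusted 0.457), and gene counts were 4.89% of the group mean higher (exact p = 0.457, adjusted 0.457). None of these differences was larger than the spread between libraries. CKp25_2wk_4518 and CK_2wk_4520, which are both Ttr-high, stood apart from the other 2-week libraries: in them multiply aligned reads made up 6.81% and 7.15% of the total and 12.2 to 14.3% in the remaining 4. Without both, each of the 3 differences had the opposite sign, and counts below are given without them where they move by over 1.5 times.

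Promoters of choroid plexus genes that were higher in the Ttr-high libraries were read for the core recognised by OTX2, a homeodomain factor of the choroid plexus epithelium whose own transcript was among them. Sequences are from RefSeq on GRCm38.p6, whereas the counts were made on an older build, so no coordinate was carried over. The core is TAATCC, searched on both strands (GGATTA on the reverse), in windows of 250 bases before to 50 bases after a gene's start. It was present in 5 of the 62 windows found for 44 of the 53 genes of the choroid plexus list (8.06%), and in 7.06% of all 32851 windows searched. The shares are close, and a match of these letters is not a binding site. The 250 bases before the start of 3 genes are shown, 5′ to 3′ on the gene's strand with the core in capitals, because they give both matched and unmatched cases: Abca4 at chr3:122044210-122044459 (plus strand) holds the core in reverse, Ace at chr11:105967698-105967947 (plus strand) holds it forward, and Kl at chr5:150952357-150952606 (plus strand) does not hold it.
Abca4: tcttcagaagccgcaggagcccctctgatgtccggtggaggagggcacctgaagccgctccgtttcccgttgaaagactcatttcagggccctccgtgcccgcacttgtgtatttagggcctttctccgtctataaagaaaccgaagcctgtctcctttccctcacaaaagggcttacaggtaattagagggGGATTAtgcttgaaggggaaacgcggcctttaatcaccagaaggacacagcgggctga
Ace: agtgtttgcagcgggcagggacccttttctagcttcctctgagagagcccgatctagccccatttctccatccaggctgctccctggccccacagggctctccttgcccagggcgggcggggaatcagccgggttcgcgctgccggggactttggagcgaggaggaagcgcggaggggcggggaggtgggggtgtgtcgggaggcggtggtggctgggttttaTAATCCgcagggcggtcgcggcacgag
Kl: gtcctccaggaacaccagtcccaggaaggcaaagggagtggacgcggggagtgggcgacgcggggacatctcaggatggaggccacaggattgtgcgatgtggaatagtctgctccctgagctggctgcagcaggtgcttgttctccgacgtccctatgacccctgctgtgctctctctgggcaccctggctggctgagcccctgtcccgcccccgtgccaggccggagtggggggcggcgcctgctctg

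The other markers that define the choroid plexus followed Ttr in every group. All levels from here on are CPM on library sizes scaled by TMM, a correction for composition, and differences are log2 differences between Ttr-high and Ttr-low libraries fitted over all 4 groups, with their standard error (SE). Ttr ran from 298 through a median of 1037 to 2244 CPM in the 7 Ttr-high libraries, against 6.49, 15.1, 7.52, 6.44 and 20.6 CPM in the Ttr-low libraries, a difference of 6.61 ± 0.45 (SE). Kl, which encodes klotho, a co-receptor of fibroblast growth factor signalling that is also shed into cerebrospinal fluid, ran from 22.1 through 61.9 to 105 CPM in Ttr-high libraries, against 12.4, 11.7, 9.14, 6.44 and 13.4 CPM in Ttr-low libraries. Every Ttr-high library lay above every Ttr-low library for Kl, and the difference was 2.62 ± 0.34. Prlr, the prolactin receptor, ran from 17.3 through 41.5 to 153 CPM in Ttr-high libraries, against 6.86, 5.32, 4.47, 6.44 and 5.26 CPM in Ttr-low libraries, a difference of 3.14 ± 0.40. The Ttr-low libraries were close together for Prlr, and the lowest Ttr-high library, CKp25_2wk_4894, was also the lowest for Ttr and Kl. None of the 3 genes was at 0 in a Ttr-low library.

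**Figure D1:**
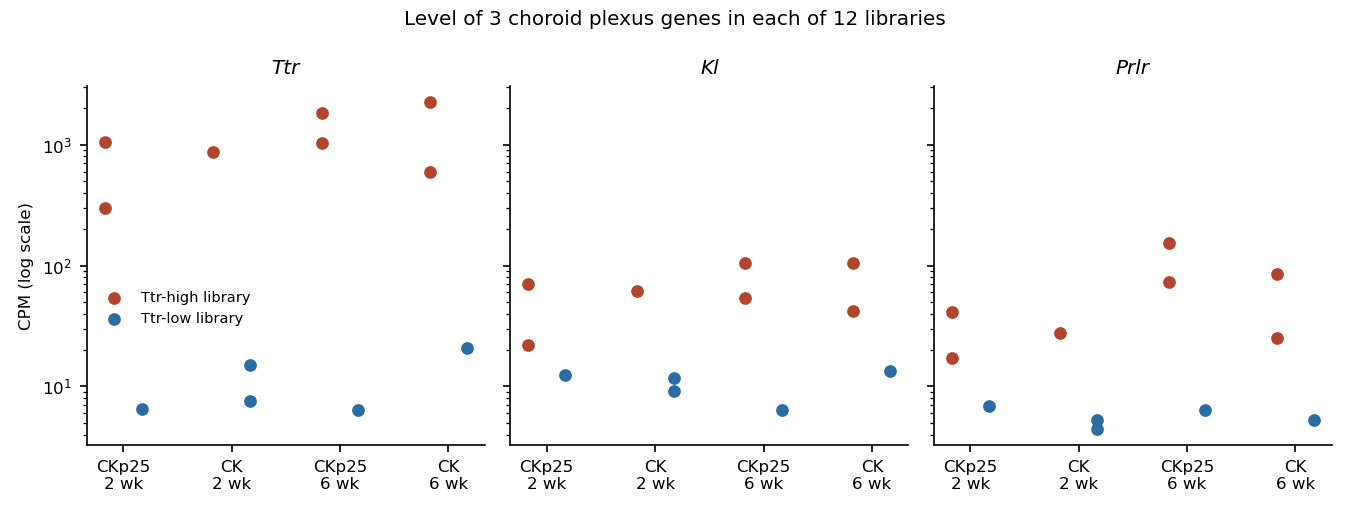
Level of Ttr, Kl and Prlr (CPM, log scale) in each of the 12 libraries, by group, with Ttr-high libraries to the left of Ttr-low libraries; each point is 1 library. In every group the Ttr-high libraries lie above the Ttr-low ones, and CKp25_2wk_4894, at 298 CPM of Ttr, is the lowest of the Ttr-high libraries for all 3 genes.

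To describe the difference over all genes, a gene was counted as past the rule at a difference of at least 2-fold with every Ttr-high library above (or every one below) every Ttr-low library of its own group, in all 4 groups. Of 14457 genes tested, 59 were higher by this rule (0.408%) and 3 were lower (0.0208%). Since Ttr chose the libraries, nothing is read from these shares. The choroid plexus list has 53 genes, of which 49 passed the filter on low counts, and 29 of the 49 were among the 59. All 49 had a positive difference, as had 48.9% of all genes tested, with a median of 2.04 and a range of 0.32 to 6.61, and the median was 1.91 without Ttr, against -0.0036 over all genes tested. A further 6 were ordered in every group at under 2-fold (2.27% of all genes tested were ordered upward at any size), and 7 were 2-fold or more but not ordered in every group. For 14 of the 49 no Ttr-low library reached the filter's cutoff of 1.88 CPM, so they entered through the Ttr-high libraries alone. Just inside the 2-fold limit lay Msx1 at 1.02, and just outside it Ms4a6b at 0.999856.

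Among the 12 secreted products tested, 9 were past the rule. Enpp2, or autotaxin, which makes lysophosphatidic acid, ran from 248 through 751 to 1351 CPM in Ttr-high libraries, against 144, 138, 129, 186 and 154 CPM in Ttr-low libraries, a difference of 2.25 ± 0.27. The classes did not overlap, and the Ttr-low libraries lay close together for Enpp2, which oligodendrocytes also make. Igf2, a growth factor that meningeal cells also make, ran from 32.1 through 70.7 to 130 CPM in Ttr-high libraries, against 30.4, 23.5, 12.4, 33.0 and 16.99 CPM in Ttr-low libraries, a difference of 1.54 ± 0.24. It was ordered within each group, although the lowest Ttr-high value, in CK_6wk_3936, was below the Ttr-low value of CKp25_6wk_3940. F5, coagulation factor V, had 7.03 to 55.2 CPM in Ttr-high libraries and 0.809 to 2.41 CPM in Ttr-low libraries, a difference of 4.36 ± 0.53. The 3 secreted genes tested that were not past the rule were Lbp, Wfikkn2 and Bmp6. Wfdc2, which did not pass the filter, had 0.163 to 1.09 CPM in Ttr-high libraries and no count in any Ttr-low library.

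Of the 5 receptors tested, 3 were past the rule, namely Folr1, the folate receptor of the epithelium, Prlr and Kl. Htr2c, a serotonin receptor that neurons also express, had 32.0 to 66.2 CPM in Ttr-high libraries and 25.2 to 31.5 CPM in Ttr-low libraries, with no overlap and a difference of 0.71 ± 0.15, under 2-fold. Stra6, a receptor in retinol uptake, differed by 0.47 ± 0.23 and was not ordered in every group.

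The ion and water transporters move salt and water into the cerebrospinal fluid, and 7 of the 10 were past the rule. Slc12a2, the sodium, potassium and chloride cotransporter, had 80.2 to 154 CPM in Ttr-high libraries and 64.8 to 101 CPM in Ttr-low libraries. These ranges overlapped, and its difference of 0.35 ± 0.08 was the lowest of the role. Slc4a2, an anion exchanger, had 27.3 to 81.3 CPM in Ttr-high libraries and 20.7 to 35.1 CPM in Ttr-low libraries, a difference of 0.92 ± 0.16. Car12, a carbonic anhydrase, had 28.9 to 60.6 CPM in Ttr-high libraries and 10.5 to 21.9 CPM in Ttr-low libraries, a difference of 1.15 ± 0.18. The largest differences of the role were those of Kcne2, a potassium channel subunit (5.27 ± 0.67), Slc4a5, a sodium bicarbonate cotransporter (5.09 ± 0.50), and Kcnj13, a potassium channel (4.22 ± 0.55). Their mean levels in Ttr-low libraries were 0.069, 0.369 and 0.811 CPM.

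Of the 8 genes tested that handle nutrients, metals and retinoids, 3 were past the rule. Slc13a4, a sulfate transporter, had 9.36 to 46.4 CPM in Ttr-high libraries and 2.24 to 15.8 CPM in Ttr-low libraries. Its difference was 1.45 ± 0.34, but CKp25_2wk_4894 at 11.3 CPM lay below the Ttr-low library of its own group at 15.8 CPM. Slc31a1, the copper importer, had 14.6 to 22.7 CPM in Ttr-high libraries and 8.18 to 13.7 CPM in Ttr-low libraries, a difference of 0.62 ± 0.12. Abca4, a retinoid transporter, had 8.01 to 31.6 CPM in Ttr-high libraries and 2.74 to 4.82 CPM in Ttr-low libraries, a difference of 2.20 ± 0.35.

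Of 7 genes of epithelial structure, 2 were past the rule, the tight junction genes Cldn1 (1.31 ± 0.26) and Cldn2 (3.86 ± 0.57). Ezr, or ezrin, which ties the membrane to actin, had 42.2 to 94.2 CPM in Ttr-high libraries and 36.8 to 62.8 CPM in Ttr-low libraries, a difference of 0.32 ± 0.08, the lowest of the whole list. Col8a1, a short-chain collagen, had 2.45 to 21.5 CPM in Ttr-high libraries and 1.01 to 2.74 CPM in Ttr-low libraries. Its difference was 2.20 ± 0.43, and the 2.45 CPM of CKp25_2wk_4894 again lay under the 2.60 CPM of its group's Ttr-low library. Spint2, an inhibitor of serine proteases, had 5.00 to 9.60 CPM in Ttr-high libraries and 2.45 to 5.19 CPM in Ttr-low libraries, a difference of 0.43 ± 0.20.

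Both transcription factors tested were past the rule. Otx2, which the adult epithelium keeps expressing, had 1.47 to 10.5 CPM in Ttr-high libraries and 0 to 0.614 CPM in Ttr-low libraries, a difference of 4.37 ± 0.53. Msx1, a homeobox gene, had 2.78 to 9.82 CPM in Ttr-high libraries and 2.43 to 4.67 CPM in Ttr-low libraries, a difference of 1.02 ± 0.22. Lmx1a, an early choroid plexus factor, did not pass the filter, with 0.203 to 1.89 CPM in Ttr-high libraries and 0 to 0.614 CPM in Ttr-low libraries.

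Of the 5 remaining list members, 3 were past the rule and all 5 were ordered in every group. Tmem72, a membrane protein, had 2.94 to 25.0 CPM in Ttr-high libraries and 0 to 0.405 CPM in Ttr-low libraries, a difference of 5.52 ± 0.65. Cab39l, which belongs to a family of kinase scaffolds, had 24.5 to 50.5 CPM in Ttr-high libraries and 18.8 to 26.7 CPM in Ttr-low libraries, a difference of 0.73 ± 0.14. Mdfic had 2.03 to 10.9 CPM in Ttr-high libraries and 1.42 to 5.80 CPM in Ttr-low libraries, a difference of 0.71 ± 0.22.

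**Figure D2:**
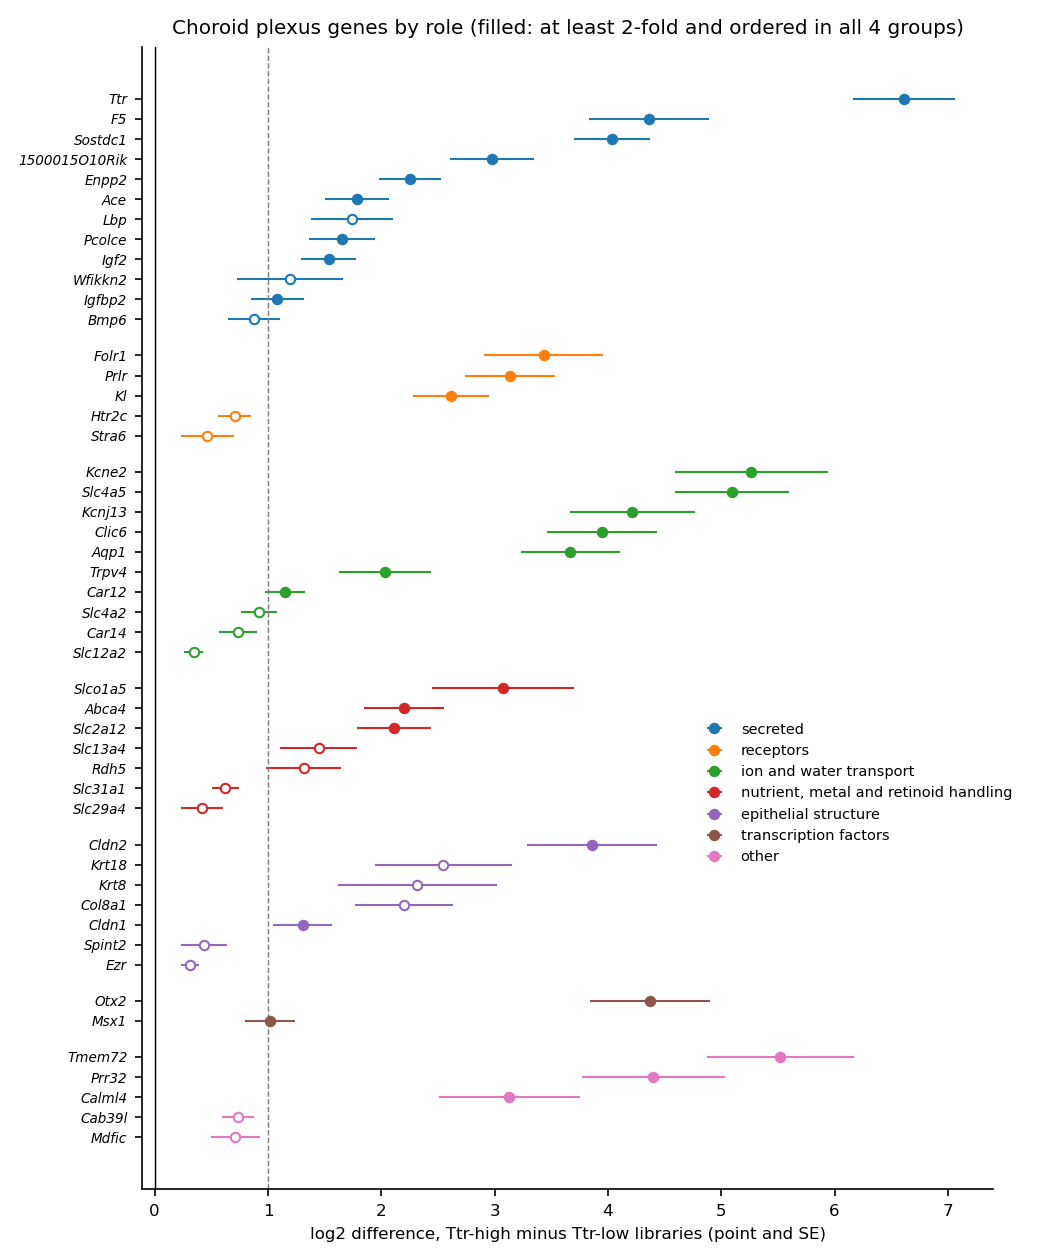
Log2 difference between Ttr-high and Ttr-low libraries (point, with SE as the bar) for 48 of the 49 choroid plexus genes tested, grouped by role; filled points are past the rule and the dashed line marks 2-fold. All points lie right of 0, from Ezr at 0.32 to Ttr at 6.61, and 29 are filled.

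Taken within a group, the median difference of the list was 0.64 in CKp25 at 2 weeks, 1.66 in CK at 2 weeks, 1.84 in CKp25 at 6 weeks and 1.81 in CK at 6 weeks. CKp25 at 2 weeks holds CKp25_2wk_4894, in which the list summed to 1097 CPM, the lowest of the Ttr-high libraries, against 613 CPM in CKp25_2wk_4890. The summed list without Ttr ran from 798 to 2954 CPM in Ttr-high libraries and from 441 to 631 CPM in Ttr-low libraries. The excess of all list members over the Ttr-low mean of the same group came to 0.0484% of gene counts in CKp25_2wk_4894 and 0.444% in CK_6wk_4009, with the other 5 Ttr-high libraries between.

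For each gene, that excess was also taken per 100 CPM of excess Ttr, to see whether the members kept to 1 ratio across the 7 Ttr-high libraries. Tmem72 was the most even of the genes plotted, at 0.89 to 1.21 CPM per 100 CPM of Ttr, a range of 1.35-fold. Clic6, a member of the chloride channel family, ranged over 1.40-fold, and Car12 and Otx2 each over 1.51-fold. Kl ranged from 3.30 to 5.99 (1.81-fold) and Enpp2 from 35.6 to 64.9 (1.82-fold). Igf2 ranged over 5.18-fold, with its lowest value in CKp25_2wk_4894 and its highest, 6.94, in CK_2wk_4520, and over 2.87-fold without CKp25_2wk_4894. Ace, angiotensin-converting enzyme, ranged over 9.34-fold, from 0.479 in CKp25_2wk_4894 to 4.48 in CK_6wk_3936. Without CKp25_2wk_4894 it ranged over 1.74-fold, from 2.58. Folr1 and Ezr likewise ranged over 14.1-fold and 74.6-fold with that library and over 1.48-fold and 5.20-fold without it. For 14 of the 53 list genes at least 1 Ttr-high library was not above its group's Ttr-low mean, so that no range could be given. The other 39 had a median range of 2.86-fold, and Ttr itself, with a range of 1 by definition, is among them.

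Prlr was among 15 of 53 list genes for which both CKp25 libraries of 6 weeks had higher ratios than the other 5 Ttr-high libraries. The CK pair of 6 weeks stood highest in this way for 2 genes, and the CKp25 pair of 2 weeks for 0. Ttr, fixed at 100 by definition, could not be counted. These counts were not made over all genes, and nothing is read from them. Prlr stood at 6.52 and 8.06 CPM per 100 CPM of excess Ttr in the 2 CKp25 libraries of 6 weeks, against 2.63 to 3.59 in the other 5. It was singled out after its values were seen, and the CKp25 ratios of 6 weeks rest on 1 Ttr-low library and have no replicate check. In the fit with the split, Prlr differed between CKp25 and CK at 6 weeks by 0.93 ± 0.39 on the log2 scale and missed the threshold (adjusted p = 0.0733, edgeR). It was called in 8 of 21 settings, among them those without CKp25_6wk_3937, CKp25_6wk_3940 or CK_6wk_4009. It was not called without CKp25_6wk_4008 (0.31) or without CK_6wk_3936 (0.44), or by DESeq2 or limma-voom. The difference ran from 0.31 to 1.87 over the 21.

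**Figure D3:**
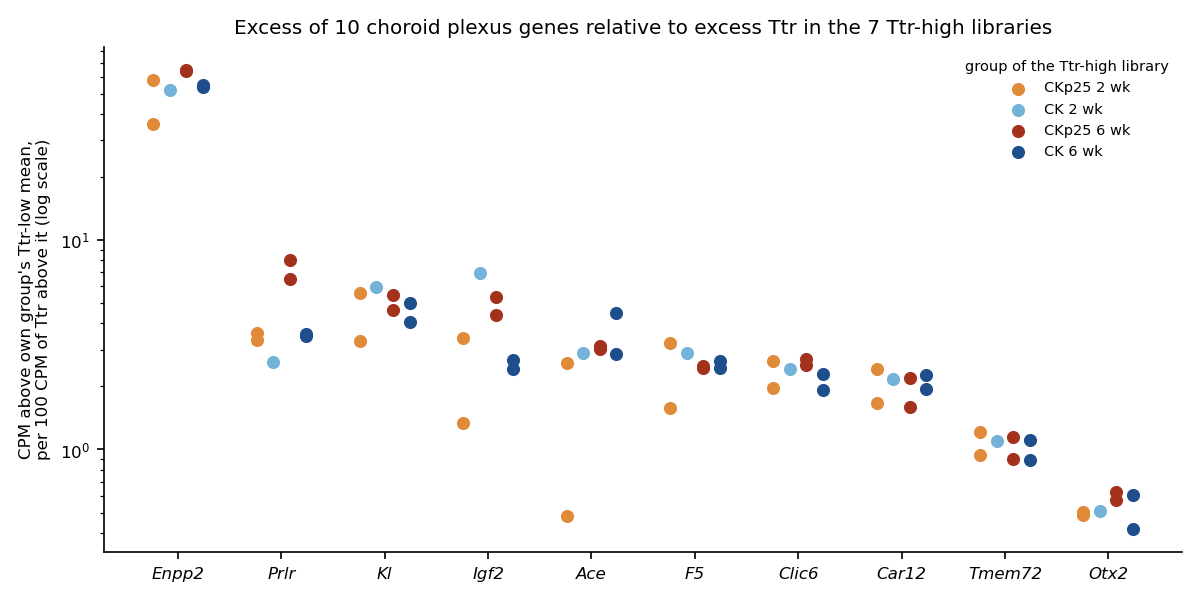
CPM above the Ttr-low mean of the library's own group, per 100 CPM of Ttr above it (log scale), for 10 choroid plexus genes; each point is 1 of the 7 Ttr-high libraries, coloured by group. Tmem72 and Clic6 keep within 1.40-fold. For Prlr the 2 CKp25 libraries of 6 weeks, at 6.52 and 8.06, lie above the other 5, as they also do for Enpp2.

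Lists of other tissues at the border of the ventricle and the meninges shifted in the same direction by less. All 14 ependymal and motile cilia genes tested were positive, with a median of 0.46, and the summed list of 20 genes was 63.7 to 103 CPM in Ttr-high libraries and 56.9 to 71.7 CPM in Ttr-low libraries. Foxj1, the master factor of motile cilia, differed by 0.56 ± 0.15 and was ordered in every group, Ccdc39, a ciliary assembly protein, differed by 0.13 ± 0.14, and 1 gene, Rsph1 of the ciliary radial spoke, was past the rule (1.24 ± 0.31). All 14 meningeal fibroblast genes tested were positive, with a median of 0.61, 1 ordered in every group and none past the rule. Ptgds, a prostaglandin synthase, differed by 0.55 ± 0.23 and Dcn, or decorin, by 0.26 ± 0.12, each with its SE. The summed meningeal list was 340 to 1147 CPM in Ttr-high libraries and 188 to 678 CPM in Ttr-low libraries. In CKp25 at 2 weeks the order was reversed, with the highest sum, 564 CPM, in the Ttr-low library. Blood genes, all hemoglobins but Alas2, had a median of 0.63 with 5 of 5 positive and none ordered in every group. Their near-identical copies lose reads in counting, so single hemoglobin genes are uncertain. Border macrophage genes had a median of 0.51 with 4 of 4 tested positive, Mrc1 at 0.26 ± 0.25 and F13a1 at 0.40 ± 0.24. No gene of these 4 lists was at 0 in all libraries of either class. Their part in the choroid plexus differences was not tested.

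Vascular lists were mostly positive. Endothelial genes had a median of 0.16 with 9 of 10 positive (Flt1 0.13 ± 0.07, Slco1c1 0.33 ± 0.09). Of these, 2 were ordered in every group, Slco1c1 and Plvap, a gene of fenestrated endothelium named after its values were seen, which had the largest difference (0.85 ± 0.26). Mural genes had a median of 0.15 with 8 of 9 positive and differences up to 0.68 (Rgs5 0.02 ± 0.07, Vtn 0.39 ± 0.10). The medians of neuronal and glial lists lay near 0. Astrocyte genes had a median of 0.03 (Slc1a2 0.02 ± 0.06, Gfap 0.17 ± 0.09), microglial genes 0.01 (Csf1r 0.05 ± 0.08) and oligodendrocyte genes -0.09 (Mbp -0.07 ± 0.08). All 8 pan-neuronal genes were negative, with a median of -0.10, among them Camk2a at -0.11 ± 0.08 and Snap25 at -0.10 ± 0.07. CA pyramidal genes had a median of -0.01 (Neurod6 -0.14 ± 0.08, Fibcd1 -0.00094 ± 0.10), and dentate granule genes one of 0.03 (Dock10 0.04 ± 0.08, Prox1 0.02 ± 0.09). Immediate early genes stood at 0.02 (Arc 0.05 ± 0.16, Egr1 -0.03 ± 0.11). These values carry no test.

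Markers of neighbouring brain regions had list medians of 0 or below. Neocortical genes were negative in 7 of 7, with a median of -0.17 (Tshz2 -0.20 ± 0.06, Rorb -0.0061 ± 0.07). Striatal genes had a median of -0.0047 (Pde10a -0.0047 ± 0.07, Ppp1r1b 0.16 ± 0.15). Thalamic and habenular genes had a median of -0.08, with 5 of 10 tested (Slc17a6 -0.19 ± 0.10, Prkcd -0.12 ± 0.12).

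**Figure D4:**
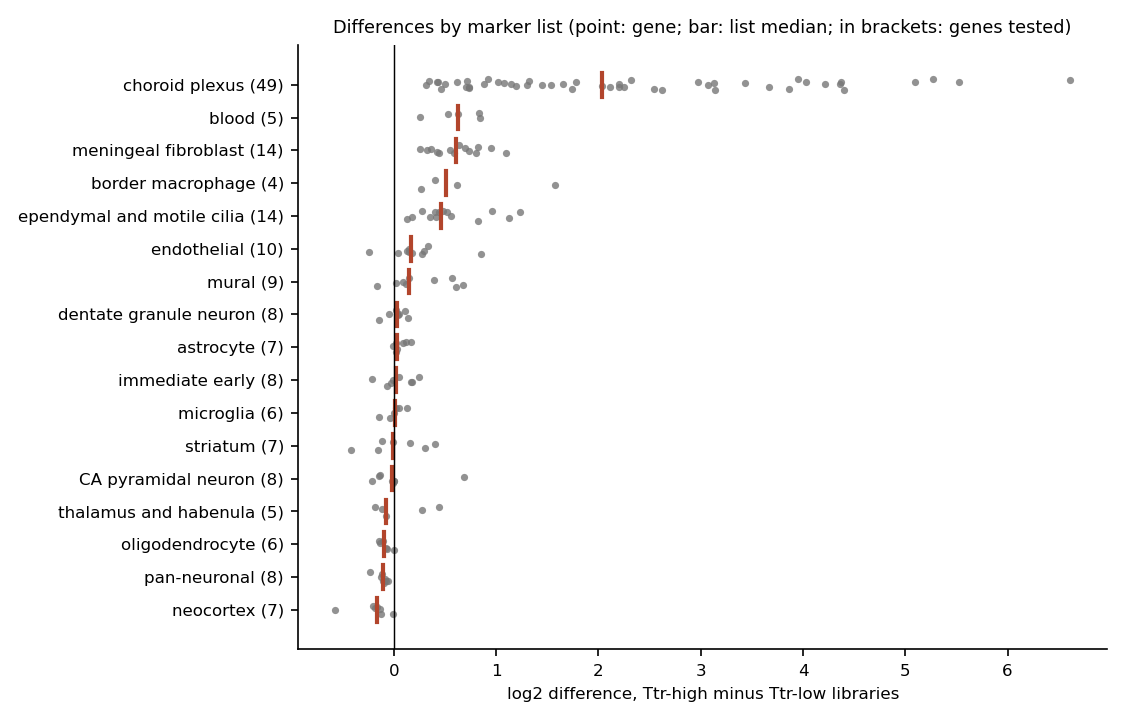
Log2 difference between Ttr-high and Ttr-low libraries for each tested gene (grey point) of 17 marker lists, with the list median as a bar and the number of genes tested in brackets. The choroid plexus list has a median of 2.04, the blood, meningeal, border macrophage and ependymal lists lie between 0.46 and 0.63, and the other lists between -0.17 and 0.16.

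Of the 59 genes past the rule upward, 29 were on no list. The largest difference was that of Mfrp, a membrane receptor gene that shares a transcript with C1qtnf5 in mouse, so its count is uncertain. It had 17.2 and 5.07 CPM in the CKp25 Ttr-high libraries of 2 weeks, 12.2 in that of CK, 19.2 and 31.6 in those of CKp25 at 6 weeks and 8.14 and 35.4 in those of CK, against 0.409 to 0.742 CPM in Ttr-low libraries. Its difference was 4.84 ± 0.55. Next came Wdr72 (4.17 ± 0.69), Wdr86 (3.87 ± 0.48), the collagen Col8a2 (2.48 ± 0.37) and Oca2, known for its part in pigmentation (2.37 ± 0.56). Col4a4 (2.29 ± 0.40) and Col4a3 (2.23 ± 0.40) encode partner chains of basement membrane collagen. Drc7, of the ciliary dynein regulatory complex (1.94 ± 0.34), Nek5, a kinase (1.87 ± 0.54), and Rbm47, an RNA-binding protein gene (1.83 ± 0.32), completed the 10 largest. The 3 genes past the rule downward were 1110018N20Rik (-1.17 ± 0.28), Gm11868 (-1.07 ± 0.41) and Gm17081 (-1.02 ± 0.34), whose means were 1.15 to 1.28 CPM in Ttr-high libraries and 2.33 to 2.94 CPM in Ttr-low libraries.

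Likeness to Ttr was measured as Pearson's r of log2(CPM + 0.5), each gene centred within its group, over the 12 libraries. Since the libraries fall into 2 classes by Ttr, r mostly reflects that split and is given as a description. The likest gene was Sostdc1, a secreted inhibitor of BMP and Wnt signals (r = 0.992), and 23 of the 50 likest genes were on the choroid plexus list. The median r of the list was 0.90, against -0.02 over all genes tested. Off the list the likest were Mfrp (0.982), Wdr86 (0.972), Wdr72 (0.968), Cfap52, a ciliary gene (0.957), Lepr, the leptin receptor (0.955), Cgnl1, a junction protein gene (0.952), Slc22a5, a carnitine transporter (0.945), Cpxm2 (0.943), Serpinh1, a collagen chaperone (0.943), and Car13, a carbonic anhydrase (0.941). Lepr had 9.11 CPM on average in Ttr-high libraries and 3.66 CPM in Ttr-low libraries.

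The genotype of the mice was not used by the rule, and the CKp25 against CK difference was tested with the split in the model (edgeR's quasi-likelihood test with Benjamini-Hochberg adjustment over all 14457 genes, threshold 0.05). At 2 weeks 1566 genes were higher and 917 lower in CKp25 with the split, 2483 in all (17.2%). Without the split there were 2833 (19.6%), and 2443 genes were called in both fits. At 6 weeks there were 2714 higher and 2277 lower with the split, 4991 in all (34.5%), against 4811 without it (33.3%), and 4785 were called in both. The genes called in both fits were 98.4% of those called with the split and 86.2% of those called without it at 2 weeks, and 95.9% and 99.5% at 6 weeks.

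For the choroid plexus list, the genotype differences had smaller errors with the split, and at 2 weeks other values. Both largely follow from the rule, since all 49 genes tested, Ttr among them, were higher in the libraries that Ttr chose. The median SE of the 49 genes was 0.45 with the split and 0.75 without it at 2 weeks, and 0.37 and 0.69 at 6 weeks, against 0.14 over all genes tested in each of the 4 fits. At 2 weeks, where the split is uneven between genotypes, the median genotype difference of the list was -0.14 with the split and 0.39 without it. All 49 differences were lower with the split, and 28 changed sign, among them Kl at -0.30 with the split and 0.33 without it, Kcnj13 at -0.36 and 0.42, and F5 at -0.20 and 0.62. At 6 weeks the median was 0.37 with the split and 0.30 without it, and 4 genes changed sign. Ttr is in these counts but is not compared between genotypes on its own, since it defines the split. Kl differed by -0.04 ± 0.38 at 6 weeks with the split and missed the threshold (adjusted p = 0.952, edgeR).

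**Figure D5:**
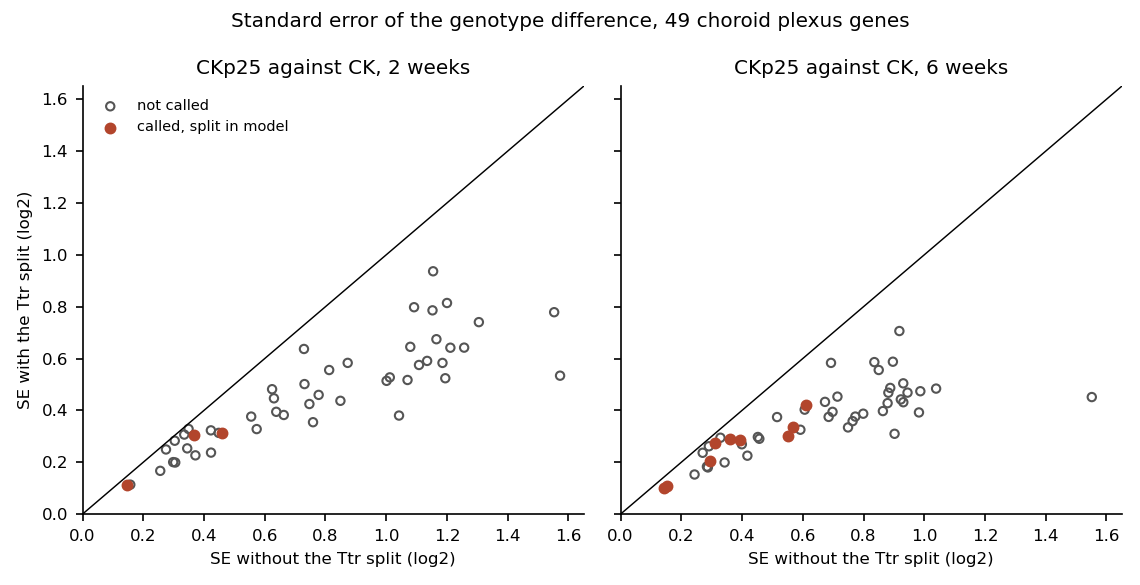
Standard error of the CKp25 against CK difference (log2) for the 49 choroid plexus genes tested, with the Ttr split in the model (vertical) against without it (horizontal), at 2 and 6 weeks; the line marks equality and filled points are genes called with the split. All points lie under the line, and 3 genes at 2 weeks and 9 at 6 weeks are filled. Lower errors with the split largely follow from choosing the libraries by Ttr, which is among the 49.

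At 2 weeks 3 of the 49 list genes were called, all higher in CKp25, against 10.8% of all genes tested called higher. They were Ezr, Igfbp2 and Mdfic, the same 3 genes as without the split, where 11.6% of all genes were called higher. Ezr had 71.6, 55.6 and 55.4 CPM in CKp25 libraries, against 42.2, 37.6 and 36.8 CPM in CK libraries. The genotypes did not overlap, and the difference was 0.54 ± 0.11 (adjusted p = 0.00178, edgeR). Igfbp2, a binding protein of insulin-like growth factors, had 66.9, 48.9 and 46.7 CPM in CKp25 libraries, against 31.9, 19.4 and 10.2 CPM in CK libraries, a difference of 1.12 ± 0.31 (adjusted p = 0.0171, edgeR). Mdfic had 5.83, 6.54 and 4.27 CPM in CKp25 libraries, against 3.69, 2.05 and 1.63 CPM in CK libraries, a difference of 0.94 ± 0.30 (adjusted p = 0.0408, edgeR). Without CKp25_2wk_4518 and CK_2wk_4520 none of the 3 was called by edgeR, with an adjusted p of 0.0556 for Ezr, and 5 of the 50 list genes then tested had an unadjusted p under 0.05. The differences were then 0.41 for Ezr, 1.14 for Igfbp2 and 1.17 for Mdfic. Without CKp25_2wk_4890, CK_2wk_4520 or CK_2wk_4893 in turn, Igfbp2 and Mdfic were not called. Over the 21 settings tried at each time, Ezr was called in 20, Igfbp2 in 16 and Mdfic in 12. DESeq2 called neither Igfbp2 nor Mdfic, and limma-voom did not call Mdfic. Of the 12 settings that left out 1 library, Igfbp2 was called in 9 and Mdfic in 6.

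At 6 weeks 9 of the 49 list genes were called with the split, all higher in CKp25, against 18.8% of all genes tested called higher. Without the split, where 18.1% of all genes were called higher, there were 5, namely Bmp6, Car14, Ezr, Mdfic and Slc12a2. Those 5 were called in all 21 settings tried. Slc12a2 had 154, 148 and 101 CPM in CKp25 libraries, against 92.8, 113 and 84.2 CPM in CK libraries. The Ttr-low CKp25 library, at 101 CPM, lay below the Ttr-high CK library CK_6wk_4009 but above its Ttr-low counterpart, and the difference was 0.46 ± 0.11 (adjusted p = 0.0027, edgeR). Car14, a carbonic anhydrase, had 19.0, 19.8 and 9.98 CPM in CKp25 libraries, against 7.32, 10.3 and 6.07 CPM in CK libraries, a difference of 1.01 ± 0.20 (adjusted p = 0.000809, edgeR). Bmp6, a growth factor, had 18.2, 23.3 and 9.98 CPM in CKp25 libraries, against 6.10, 12.9 and 4.05 CPM in CK libraries, a difference of 1.13 ± 0.29 (adjusted p = 0.00468, edgeR). For these 3 genes each genotype's Ttr-low library was its lowest. Ezr differed by 0.61 ± 0.10 and Mdfic by 1.69 ± 0.29, with adjusted p of 0.000146 and 0.000183 (edgeR).

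Genes called at 6 weeks only in the fit with the split included Igf2 (0.99 ± 0.30), Pcolce, an enhancer of procollagen processing (1.15 ± 0.34), and Slc13a4 (1.13 ± 0.42). Their adjusted p were 0.016, 0.0126 and 0.0452 with the split and 0.19, 0.121 and 0.178 without it (edgeR). As the lower errors with the split largely follow from choosing the libraries by Ttr, these calls depend on that choice. Igf2 had 78.0, 130 and 33.0 CPM in CKp25 libraries, against 32.1, 70.7 and 16.99 CPM in CK libraries. The genotypes overlapped. Over 21 settings Igf2 and Pcolce were called in 17 each and Slc13a4 in 12, and their difference was positive in each setting. DESeq2 called neither Igf2 nor Slc13a4, and limma-voom did not call Slc13a4. Without CK_6wk_4009, the library highest in Ttr, 23 of the 49 list genes tested were called at 6 weeks. No share of all genes was set beside this count, and nothing is read from it.

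Markers of the meninges and of several other non-neuronal cell types were also higher in CKp25 at 6 weeks. Over all genes tested, 18.8% were called higher at that time with the split. By the same fit, 7 of 7 astrocyte, 6 of 6 microglial, 6 of 6 oligodendrocyte, 7 of 9 mural and 7 of 10 endothelial genes tested were called higher, and no gene of these 5 lists lower. At 6 weeks 13 of the 14 meningeal fibroblast genes tested were called higher in CKp25 with the split, with a median difference of 1.48. The list summed to 678 to 1147 CPM in CKp25 libraries and 238 to 375 CPM in CK libraries, with no overlap and no member at 0 in all libraries of either genotype. Border macrophage genes were called higher in 4 of 4 tested at 6 weeks, with sums of 21.6 to 41.0 CPM in CKp25 libraries and 6.88 to 11.8 CPM in CK libraries. At 2 weeks the lowest adjusted p among the tested genes of these 2 lists was 0.156, for F13a1 (edgeR). Igf2, Slc13a4 and Pcolce are also made by meningeal cells, and the part of meningeal tissue in their difference was not tested.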

How the data were processed

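RNA from mouse hippocampus was sequenced in 12 libraries, 3 for each of 4 groups, from a stranded kit with ribosomal RNA removed, per the labels' protocols. The authors deposited raw read counts per Ensembl gene. Bowtie, Picard and HTSeq 0.6.1 with the builds NCBIM37 and mm9 are named in the submitters' processing notes. Whether counting used the strand is unknown here, and reads of overlapping antisense genes cannot be told apart. The table's 5 entries that name no gene hold 60.0 to 63.6% of all reads and stayed out of library sizes and tests. Symbols matched 32919 of 37991 genes.

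Counts were fitted with edgeR 4.0.16 (R 4.3.3): filterByExpr by group (minimum count 10, 14457 genes kept), TMM, and group plus Ttr split as terms over all 12 libraries, leaving 7 degrees of freedom. Code was tested on simulated counts. Alternatives were DESeq2 1.42.0, limma-voom 3.58.1, other size factors, no filter, another covariate or none, subsets by time or genotype, a term for library number ranges, and leaving out each library. Named were Ttr, Kl and Prlr, the 3 members of each role and 2 of each other list with the highest mean CPM, list members called for genotype, the 10 largest higher and 5 largest lower genes off the lists, and the 10 likest Ttr. Clic6, F5, Ace and other members were named after their values were seen. The members and lists were chosen with earlier results of these data known. Some genes that the naming rule covers are not reported here.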

Additional observations from a re-analysis of the deposited data

Results flagged for a closer look

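Within the 7 Ttr-high and the 5 Ttr-low libraries, 52 sets of values were examined for a library far from the rest by Dixon's ratio, which flags about 1 set in 20 by chance, and 9 were flagged. The classes mix genotypes and times, so a flagged library can differ by its group. Among Ttr-high libraries, CK_6wk_4009 had the highest Car12 (60.6 CPM) and the highest Spint2 (9.60 CPM). Among Ttr-low libraries, CK_6wk_3938 had the largest share of reads outside features (46.1%), the smallest share with several alignments (6.86%) and the lowest Col8a1 (1.01 CPM). CKp25_6wk_3940 had the most gene counts (6229896) and the highest Msx1 (4.67 CPM). CK_2wk_4891 had the highest Htr2c (31.5 CPM) and the lowest Spint2 (2.45 CPM).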

How the results depend on the processing

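Of the settings other than those used above, 151 results stayed the same, while 28 moved and 6 reversed. Staying the same meant keeping direction and side of the threshold for read classes, and keeping within 1.5 times for counts. For the list median it meant keeping direction and shifting by under 0.571, the standard deviation of that median over the 4 groups. A Ttr minimum of 50 or 200 CPM moves no library. No paired analysis was possible because no library number is shared between groups. With a term for the range of library numbers within each time (numbers with the same leading digits, not called a batch by the labels and chosen after seeing the data), the list median was 1.33. In that setting 3 of 49 choroid plexus genes were called at 2 weeks, the same 3, and 18 of 49 at 6 weeks. Counts of choroid plexus genes in this paragraph stand without the share of all genes called. With no filter on low counts, 108 genes were higher and 26 lower past the rule, and 20 of 53 choroid plexus genes were called at 6 weeks. Without the split, 5 were called at 6 weeks. With log2 Ttr as the covariate, 11 of 49 were called at 2 weeks, the covariate Ttr among them, and with DESeq2 1. Without CK_2wk_4520 and CKp25_2wk_4518 together, a setting chosen after seeing the data, 89 genes were higher and 0 choroid plexus genes were called at 2 weeks by edgeR. In 2-week libraries alone, 23 genes were lower and the list median was 1.06. In 6-week libraries alone, 133 were higher and 1 lower, and in CK libraries alone 106 and 5. Fewer groups then had to be ordered.

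Leaving out each library in turn gave 61 to 146 genes higher, the most without CKp25_2wk_4890, and 2 to 12 lower, the most without CK_6wk_3938. Leaving out the only library of a class removes its group from the ordering. The list median ran from 1.81 to 2.34. Genes called ran from 1479 (without CK_2wk_4520; 1512 without CKp25_2wk_4890) to 2907 at 2 weeks and from 3687 to 5281 at 6 weeks. Of the 49 to 51 choroid plexus genes tested, those called ran from 1 to 4 at 2 weeks, and from 6 to 23 at 6 weeks, the most without CK_6wk_4009. The differences in read classes ran from 0.453 to 3.49 points outside features, from -3.38 to -0.561 points with several alignments and from 1.10 to 12.5% in gene counts. They reversed in 6-week libraries alone (-1.03 points, 0.155 points and -6.04%) and without CK_2wk_4520 and CKp25_2wk_4518 (-0.985 points, 0.587 points and -0.659%). The cause was not tested. At these depths the filter's cutoff was 1.88 CPM, and 4 of the 53 choroid plexus genes did not pass the filter.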
